A study of Mus musculus with 6 samples.

Results

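Transcripts of glucose breakdown, the lactate shuttle and the tricarboxylic acid (TCA) cycle were examined in mouse retina with and without a conditional knockout (CKO) of Cyfip2. The members are the 37 genes chosen by symbol for these pathways, out of 24346 symbols in the data. Of them, 23 form the glycolysis group (glucose carriers, glycolytic enzymes, lactate dehydrogenase and lactate carriers) and 14 form the mitochondrial group (pyruvate dehydrogenase, the TCA cycle and malate dehydrogenases). All 37 were found and all passed the filter of a mean of at least 1 FPKM (a fragment count corrected for transcript length and for library size). None was below 1 FPKM in any library, so no member passed through 1 group alone.

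The data comprised 6 libraries of retinal mRNA, 3 labelled Cyfip2 CKO and 3 labelled Cyfip2 WT. The Cyfip2 protein belongs to the WAVE complex, a regulator of branched actin, and the series asks how transcription in the retina changes without it. The Cre driver, the floxed alleles, strain, age and sex are not stated in the labels, and neither is whether each sample was a different animal. The p-values therefore speak only of how far these samples scatter, and that scatter may be technical.

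Photoreceptors are known for aerobic glycolysis, in which glucose is turned into lactate although oxygen is present. Glucose enters cells through Slc2a (GLUT) carriers, and the enzymes of glycolysis turn it into pyruvate. Lactate dehydrogenase converts pyruvate to lactate, which leaves or enters cells through Slc16a (MCT) carriers that need the membrane glycoprotein basigin (Bsg). Alternatively, pyruvate dehydrogenase feeds pyruvate into the mitochondrial TCA cycle. Several glycolytic genes are textbook targets of the hypoxia-inducible factors, whose core sites include ACGTG.

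Only this form of the core, ACGTG, was looked for in the 250 bases before the annotated starts of the members (RefSeq, GRCm38.p6). The search was prompted by textbook targets among the members that varied most between libraries. Pgk1, the member that varied least, is such a target too. Starts were found for 34 of the 37 members, and those of Slc2a3, Bsg and Idh3a were not matched. ACGTG, on either strand, occurred in the window of 14 of the 34 members (41.2%) and of 18.5% of all 27025 symbols with a window. The letters hold a CG, and the median GC content was 59.2% in the 51 member windows against 52.4% in all 32851 windows. ACGTG is also contained in CACGTG, the E-box, and a CACGTG was counted as 1 place. The 4 members with the core at 2 or more separate places are shown, 5′ to 3′ on the gene's own strand, with the core of either strand in capitals.
Hk2, chr6:82774455-82774704, minus strand: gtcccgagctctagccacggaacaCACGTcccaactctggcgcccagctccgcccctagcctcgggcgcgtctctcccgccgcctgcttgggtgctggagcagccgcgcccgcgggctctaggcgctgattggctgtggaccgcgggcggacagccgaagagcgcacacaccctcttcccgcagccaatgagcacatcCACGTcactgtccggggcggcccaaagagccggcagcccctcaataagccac
Slc16a3, chr11:120948817-120949052, plus strand: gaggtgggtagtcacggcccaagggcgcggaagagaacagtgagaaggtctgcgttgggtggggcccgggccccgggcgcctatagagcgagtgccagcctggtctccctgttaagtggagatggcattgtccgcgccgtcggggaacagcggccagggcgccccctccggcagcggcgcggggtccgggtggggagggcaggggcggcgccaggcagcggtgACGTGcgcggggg
Ldha, chr7:46845554-46845803, plus strand: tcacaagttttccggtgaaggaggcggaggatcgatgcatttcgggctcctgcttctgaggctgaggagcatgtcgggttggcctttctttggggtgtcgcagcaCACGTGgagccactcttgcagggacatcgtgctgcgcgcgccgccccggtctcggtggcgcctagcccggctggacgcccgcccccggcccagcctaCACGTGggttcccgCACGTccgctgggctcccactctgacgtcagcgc
Pgk1, chrX:106186850-106187099, plus strand: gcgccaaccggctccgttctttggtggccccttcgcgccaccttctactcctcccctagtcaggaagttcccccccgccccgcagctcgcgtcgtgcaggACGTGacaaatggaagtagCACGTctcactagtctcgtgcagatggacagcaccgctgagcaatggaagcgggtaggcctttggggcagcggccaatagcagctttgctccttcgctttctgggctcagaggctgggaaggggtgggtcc

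In Ldha the core occurred at 3 places, 2 of which are CACGTG. The other 3 windows held it at 2 places each; 1 of those in Slc16a3 is not shown in full, since the last 14 bases of its window are annotated as exon and are not printed. A match of letters does not show that a factor binds there. Of the 4 genes shown, Hk2 and Slc16a3 were among the 3 members with the widest spread between libraries, and Pgk1 had the narrowest. Slc16a8, the member with the widest spread, had no ACGTG in its window, and other forms of the core were not searched. Hk2 and Slc16a3 were both lowest in WT 3, and a link between the core and the spread was not tested.

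Cyfip2 itself was at 8.33, 10.2 and 11.2 FPKM in CKO 1 to 3 and at 35.5, 63.1 and 62.3 FPKM in WT 1 to 3 (log2 fold change -2.29, limma adjusted p = 0.0239). WT 1 was thus the lowest of its group. WT 3 stood apart in another way, with 9.66% of its summed FPKM in 10 features against 5.65% to 6.27% in the other libraries. In the same library Ndufs5, a complex I gene, was listed at 0.0177 FPKM against 30.8 to 45.8 FPKM elsewhere. The tissue label was met by the markers of retinal neurons and Müller glia, all of which were detected in every library.

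No member passed the test between CKO and WT, and all fold changes were small, from -0.0967 (Idh3b) to 0.131 (Slc16a3) on the log2 scale. Of 37 members, 0 passed limma's adjusted threshold of 0.05, where 3 of all 13215 genes tested did (0.0227%), and the members' adjusted p-values ran from 0.712 to 0.998. None had an unadjusted p under 0.05, a mark that 7.88% of all genes tested reached. The CKO and WT values did not overlap for 2 members (Pgk1 and Mdh1, both lower in CKO), against 13.9% of all genes tested, 6.95% lower and 6.96% higher. The difference between these shares was not tested.

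**Figure D1:**
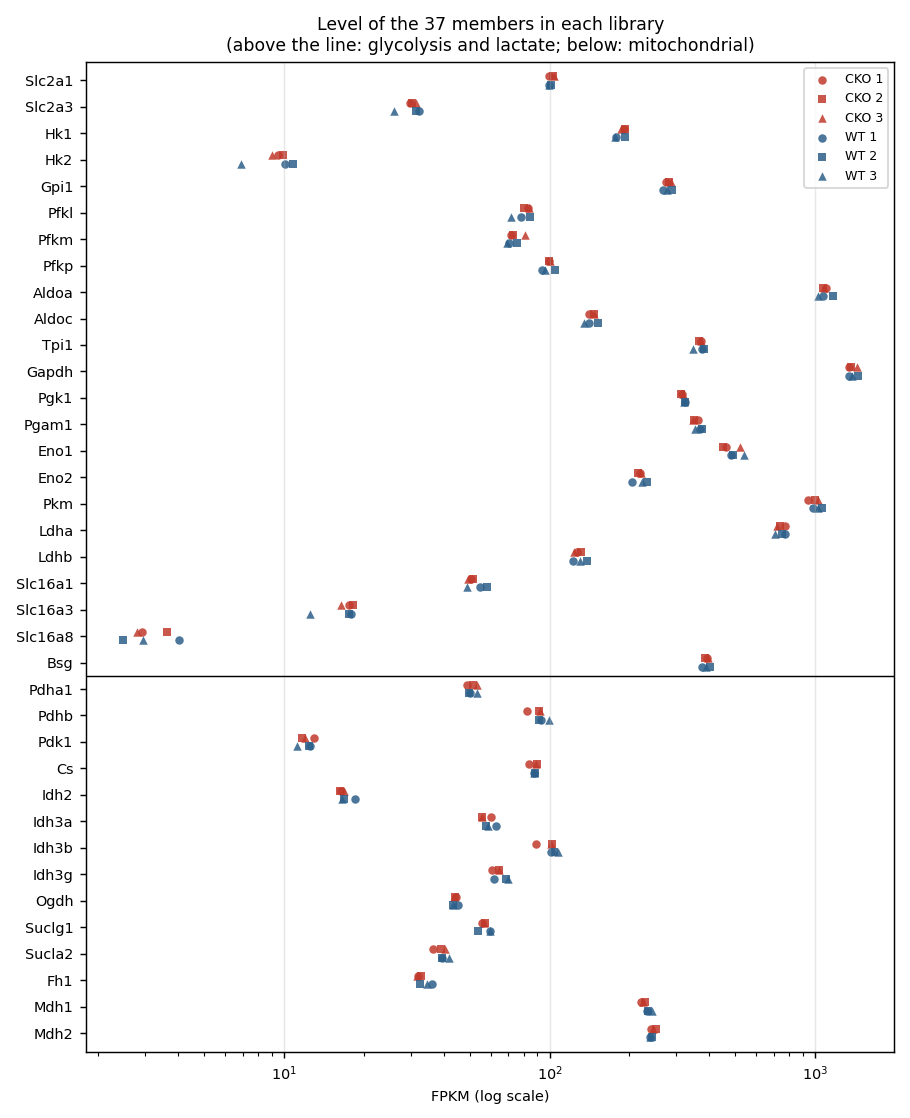
Level of each of the 37 members (rows) in FPKM on a logarithmic axis, 1 point per library, CKO in red and WT in blue. Levels span Slc16a8 at a mean of 3.13 FPKM to Gapdh at 1385 FPKM, while the 6 points of a gene lie close together.

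For 34 of the 37 members the 95% confidence interval of the log2 fold change lay within 0.25 of 0, that is within 1.19-fold in either direction. The 3 others were Hk2 (-0.29 to 0.38), Slc16a3 (-0.16 to 0.42) and Slc16a8 (-0.36 to 0.36), with means of 9.34, 16.7 and 3.13 FPKM. The median standard error was 0.054 for the members and 0.084 for all genes tested, which were not matched for level. Changes smaller than these intervals could not be detected with 3 against 3 libraries. The intervals are for single genes without adjustment, and passing the adjusted threshold over all 13215 genes took more than an interval without 0. Nxnl2, a gene outside the members, had an interval of -0.29 to -0.08 but a limma adjusted p of 0.395. Exons of 10 members overlap a gene on the other strand (GENCODE M21), among them Pfkp with 748 bases and Pdha1 with 425. On the same strand 2 members overlap a gene, Pkm with 454 bases and Pfkm with 341. The stretch searched for Aldoa (chr7:126800790-126809108) does not hold its RefSeq starts, so overlaps of that gene may have been missed. The labels do not say whether the counting used strand. In bulk tissue, fewer cells of a type and less RNA per cell cannot be told apart.

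**Figure D2:**
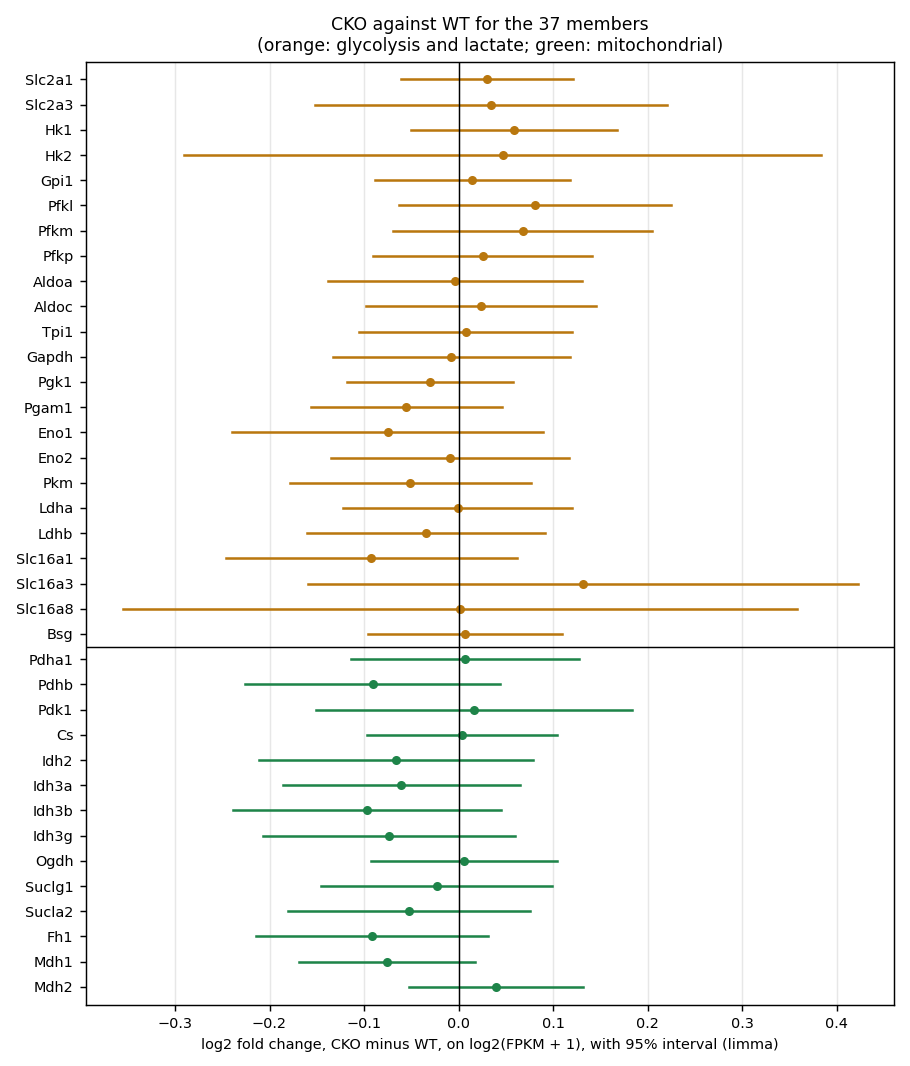
Log2 fold change (CKO minus WT, on log2(FPKM + 1)) of each member with its 95% interval from limma, glycolysis group in orange and mitochondrial group in green. Every interval includes 0; the widest are those of Slc16a8, Hk2 and Slc16a3.

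The glucose carriers Slc2a1 and Slc2a3 had nearly equal means in both genotypes. Slc2a1, the main GLUT of retina, pigment epithelium and vessels, was at 99.9, 103 and 104 FPKM in CKO 1 to 3 and at 99.8, 101 and 99.2 FPKM in WT 1 to 3. Its CV over the 6 libraries was 1.91%. Slc2a3, the high-affinity neuronal GLUT, was at 29.9, 30.2 and 31.3 FPKM in CKO, and at 32.2, 31.3 and 26.0 FPKM in WT, with WT 3 below all others. Their log2 fold changes were 0.03 (SE 0.04) and 0.03 (SE 0.08), and that of Slc2a3 was -0.0584 without WT 3.

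Of the 9 members of upper glycolysis, 8 had fold changes above 0 and 1 below, none past the test. Without WT 3, 5 lay above 0 and 4 below, and without WT 1, 6 above and 3 below, while without WT 2 or CKO 2 all 9 lay above. Hexokinase traps glucose in the cell. Its form Hk1 was at 189 ± 3.61 (CKO) against 182 ± 8.55 FPKM (WT, SD, n = 3; log2 fold change 0.06, SE 0.05). Hk2, the inducible form linked to photoreceptor glycolysis, was far lower, at 9.45, 9.88 and 8.97 FPKM in CKO, and at 10.1, 10.8 and 6.86 FPKM in WT. WT 1 and WT 2 lay above every CKO library and WT 3 lay below them all. The log2 fold change of Hk2 was 0.05 (SE 0.15), and -0.13 without WT 3. Phosphofructokinase, the committed step, was present in all forms at like levels: Pfkp at 99.8 ± 0.603 against 98.1 ± 5.66 FPKM, Pfkl at 82.2 ± 1.92 against 77.8 ± 6.34 FPKM and Pfkm at 75.2 ± 4.88 against 71.7 ± 3.32 FPKM in CKO against WT. The log2 fold change of Pfkl was 0.08, and 0.0222 without WT 3. The isomerase Gpi1, the aldolases Aldoa and Aldoc and the triose isomerase Tpi1 had log2 fold changes between -0.0039 and 0.0237. Without WT 3 those of Aldoc and Tpi1 turned to -0.0153 and -0.0332. Aldoa was at 1096, 1075 and 1080 FPKM in CKO, and at 1074, 1165 and 1026 FPKM in WT, so that the WT libraries held both its highest and its lowest value.

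All 6 members of lower glycolysis had fold changes below 0 (median -0.04), none past the test, although Eno2 and Pkm turned to 0.0043 and 0.0175 under quantile normalization, Gapdh and Eno2 to 0.0223 and 0.0346 without WT 2, and Gapdh to 0.014 without CKO 1. Gapdh, the most abundant member and number 8 of all symbols by level, was at 1382 ± 47.4 (CKO) against 1389 ± 52.0 FPKM (WT, SD, n = 3; log2 fold change -0.0076, SE 0.05). Pgk1, the first ATP-yielding kinase of the pathway, was at 315, 313 and 319 FPKM in CKO, and at 324, 323 and 321 FPKM in WT. The groups did not overlap, but the log2 fold change was -0.03 (SE 0.04, limma adjusted p = 0.892), and Pgk1 had the smallest CV of all members, 1.34%. The mutase Pgam1 (log2 fold change -0.06, SE 0.04) and the pyruvate kinase gene Pkm (-0.05, SE 0.06) lay slightly lower, with overlapping groups. Pkm is listed as 1 value per gene, so the M1 and M2 splice forms cannot be separated here. Eno2, the neuronal enolase, was at 218 ± 2.48 against 220 ± 14.6 FPKM.

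Eno1, the general enolase, has a near-identical copy without introns, Eno1b, between which reads can be split. Eno1 was at 463, 450 and 523 FPKM in CKO, and at 483, 489 and 540 FPKM in WT (log2 fold change -0.08, SE 0.07). Eno1b, named after its values were seen, was at 826, 803 and 836 FPKM in CKO, and at 766, 847 and 719 FPKM in WT (0.08, SE 0.06). WT 3 held the highest value of Eno1 and the lowest of Eno1b. Their sum was 1300 ± 53.6 (CKO) against 1281 ± 47.4 FPKM (WT), a log2 difference of 0.0214, so the sign for Eno1 turned when the copy was added. Eno1 made up 35.9% to 38.5% of the sum in CKO and 36.6% to 42.9% in WT. The intronless aldolase copies Aldoart1 and Aldoart2 and the testis gene Ldhal6b were listed below 1 FPKM in every library. Processed pseudogenes, of which Gapdh has many, could also take reads, and the labels do not say how such reads were counted.

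Lactate dehydrogenase transcripts were mostly of the A type on the FPKM scale. Ldha, the form that favours lactate formation, was at 772, 737 and 717 FPKM in CKO, and at 770, 750 and 709 FPKM in WT (log2 fold change -0.0012, 95% interval -0.12 to 0.12). Ldhb, the form that favours lactate use, was at 127, 131 and 124 FPKM in CKO, and at 123, 139 and 130 FPKM in WT (-0.03, SE 0.05). On the FPKM scale the Ldhb level was 0.172 ± 0.00686 of that of Ldha in CKO and 0.176 ± 0.0146 in WT (SD, n = 3).

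The lactate carriers differed from each other far more than between genotypes. Slc16a1 (MCT1) was at 50.8, 51.4 and 49.1 FPKM in CKO, and at 54.8, 58.3 and 48.9 FPKM in WT (log2 fold change -0.09, SE 0.07). Slc16a3 (MCT4), a carrier of lactate-exporting cells, was at 17.6, 18.2 and 16.4 FPKM in CKO, and at 17.9, 17.5 and 12.5 FPKM in WT (0.13, SE 0.13). WT 3 was again the lowest library, and without it the log2 fold change of Slc16a3 was -0.0246. Bsg, the chaperone of these carriers, was at 391 ± 5.96 against 389 ± 13.9 FPKM (0.01, SE 0.04).

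Slc16a8 (MCT3), the lactate carrier of the pigment epithelium, was the least abundant member. It was at 2.92, 3.64 and 2.80 FPKM in CKO, and at 4.01, 2.47 and 2.95 FPKM in WT, with the largest CV of the members, 18.4%. Summed FPKM of 8 pigment epithelium markers were 11.6, 16.3 and 13.1 in CKO 1 to 3 and 14.97, 6.99 and 9.94 in WT 1 to 3. The 2 libraries with the most Slc16a8 (WT 1 and CKO 2) were also the 2 with the largest marker sum, and the library with the least Slc16a8 (WT 2) had the smallest. The sum was mostly Ttr, with 9.07 FPKM in CKO 2 and 8.74 FPKM in WT 1, and other markers ordered the libraries differently: Rpe65 was highest in CKO 3, and Best1 was higher in WT 2 than in WT 1. Of the markers, 4 of 8 passed the filter; Rpe65 was at 0.645 to 1.71 FPKM and Mlana was listed at 0 in all libraries but CKO 2. The part of these cells in the Slc16a8 values was not tested.

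**Figure D3:**
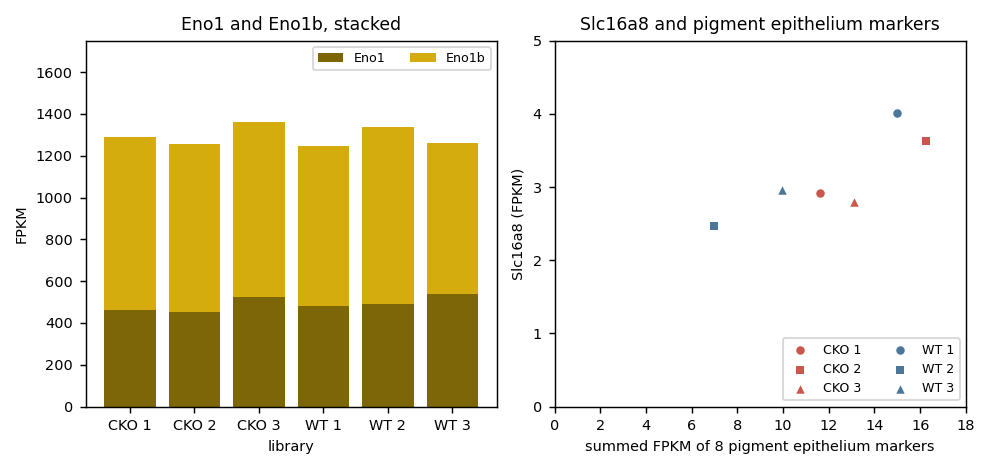
Left, FPKM of Eno1 and Eno1b stacked for each library, with sums of 1248 to 1359. Right, Slc16a8 in FPKM against the summed FPKM of 8 pigment epithelium markers, 1 point per library; WT 2 is lowest on both axes, and CKO 2 and WT 1 are highest on both.

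The link from pyruvate to the TCA cycle held no gene past the test either. Pdha1 and Pdhb encode the E1 subunits of pyruvate dehydrogenase, and Pdk1 encodes a kinase that inhibits it. Pdha1 was at 51.2 ± 2.31 (CKO) against 50.9 ± 1.94 FPKM (WT, SD, n = 3). Pdhb was at 82.5, 91.6 and 92.4 FPKM in CKO, and at 93.2, 91.4 and 99.4 FPKM in WT (log2 fold change -0.09, SE 0.06). CKO 1 was the low library, and the other CKO libraries lay within the WT range. Pdk1 was at 12.2 ± 0.677 against 12.1 ± 0.755 FPKM.

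Within the TCA cycle, 7 of 10 members had fold changes below 0 and 3 above, none past the test, with 6 below 0 without WT 1 and 7 or 8 when any other library was left out. Citrate synthase (Cs), which starts the cycle, was at 87.7 ± 3.30 (CKO) against 87.4 ± 0.369 FPKM (WT, SD, n = 3). The subunits of NAD-dependent isocitrate dehydrogenase all had lower means in CKO: Idh3a at 57.1 against 59.6 FPKM, Idh3b at 97.4 against 104 FPKM and Idh3g at 63.3 against 66.7 FPKM, with log2 fold changes of -0.06, -0.10 and -0.07. Without WT 1 that of Idh3a was -0.0221. Idh3b, the largest of these, was at 88.9, 102 and 101 FPKM in CKO, and at 101, 104 and 108 FPKM in WT (limma adjusted p = 0.762). Its groups overlapped and CKO 1 held the low value; without CKO 1 the log2 fold change was -0.03. Idh2, the NADP-dependent mitochondrial form, was at 16.5 ± 0.354 against 17.3 ± 1.11 FPKM, a log2 fold change of -0.07, or -0.0166 without WT 1.

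Further round the cycle, Ogdh, the E1 subunit of oxoglutarate dehydrogenase, was at 44.1 ± 0.327 (CKO) against 43.9 ± 0.993 FPKM (WT, SD, n = 3). The succinyl-CoA ligase subunits Suclg1 and Sucla2 had log2 fold changes of -0.02 and -0.05 (SE 0.05 and 0.06). Fumarase, Fh1, was at 32.1, 32.8 and 31.8 FPKM in CKO, and at 36.2, 32.5 and 34.6 FPKM in WT (-0.09, SE 0.05, limma adjusted p = 0.739). Only WT 2 lay within the CKO range. Mdh2, the mitochondrial malate dehydrogenase, was at 241, 253 and 245 FPKM in CKO, and at 238, 242 and 238 FPKM in WT (0.04, SE 0.04).

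Mdh1, the cytosolic malate dehydrogenase of the malate-aspartate shuttle, had the smallest p of the members. It was at 221, 229 and 224 FPKM in CKO, and at 234, 234 and 243 FPKM in WT, so all CKO values lay below all WT values. The log2 fold change was -0.08 (SE 0.04, 95% interval -0.17 to 0.02, limma unadjusted p = 0.0982, adjusted p = 0.712). The gene is annotated at chr11:21556787-21572367, minus strand (GENCODE M21, GRCm38), and 52 bases of its exons overlap Wdpcp on the other strand. Other shuttle genes, named after their values were seen, had log2 fold changes of -0.04 for Got1, -0.02 for Got2, -0.01 for Slc25a11, -0.02 for Slc25a12 and 0.08 for Slc25a13, which was near the filter at 1.35 against 1.23 FPKM.

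Ratios of related members were compared for 9 pairs with a two-sided exact permutation test over the 6 libraries, whose smallest possible p is 0.1. The groups did not overlap for 2 pairs. Mdh2 over Mdh1 was 1.096 ± 0.00677 in CKO and 1.012 ± 0.0277 in WT (SD, n = 3 each; exact p = 0.1, adjusted over the 9 pairs 0.45). Slc16a3 over Slc16a1 was 0.347, 0.354 and 0.334 in CKO and 0.327, 0.301 and 0.256 in WT (exact p = 0.1, adjusted 0.45). Both p-values are the smallest the test can give, so no pair could pass an adjusted threshold of 0.05 in this design. The ratio was 0.0484 to 0.0514 in CKO and 0.0391 to 0.0564 in WT for Hk2 over Hk1, and 0.129 to 0.137 against 0.131 to 0.132 for Aldoc over Aldoa. Without WT 3 the groups did not overlap for 4 pairs, since Hk2 over Hk1 and Slc2a3 over Slc2a1 were then lower in all CKO libraries. With fewer libraries a lack of overlap is easier to reach, so this count is not comparable with that of all 6. The share of ratios in general without overlap was not computed for either count.

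**Figure D4:**
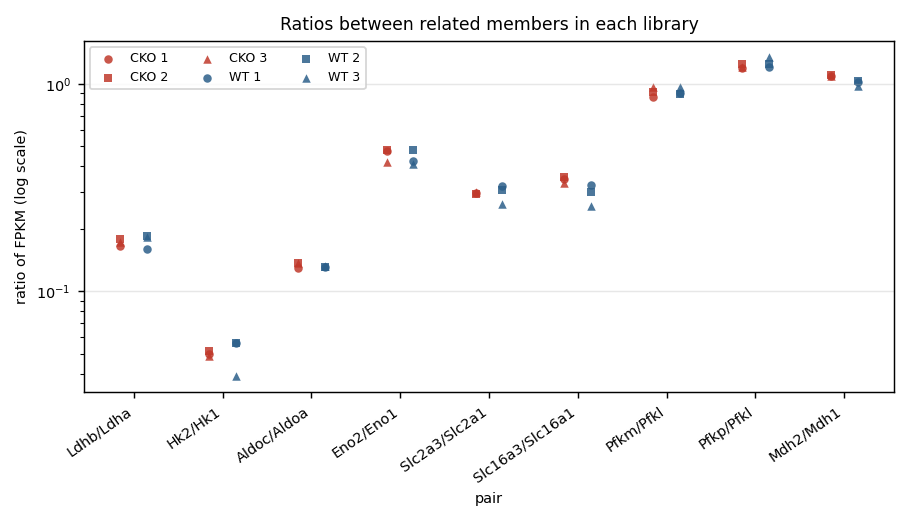
Ratio of FPKM between related members for 9 pairs on a logarithmic axis, 1 point per library, CKO in red and WT in blue. The mean ratio runs from 0.0502 (Hk2/Hk1) to 1.24 (Pfkp/Pfkl) on average, and the CKO points lie above the WT points for Mdh2/Mdh1 and Slc16a3/Slc16a1.

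The glycolysis and mitochondrial groups were then set side by side. Glycolytic transcripts were the more abundant, with a median over genes of 186 FPKM against 57.7 FPKM, and 15 of 23 against 3 of 14 members had a mean of at least 100 FPKM. The summed FPKM of the glycolysis group was 6.75 ± 0.16 times that of the mitochondrial group in CKO and 6.64 ± 0.285 times in WT (SD, n = 3 each). The glycolysis sum was 7467, 7479 and 7654 FPKM in CKO and 7475, 7885 and 7458 FPKM in WT. The mitochondrial sum was 1085, 1138 and 1128 FPKM in CKO and 1139, 1133 and 1164 FPKM in WT. In both sums the groups overlapped.

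Of the glycolysis group, 13 fold changes lay above 0 and 10 below, with a median log2 fold change of 0.0064. Of the mitochondrial group, 5 lay above 0 and 9 below, with a median of -0.0565. Over all genes tested, 49.5% lay above 0 and the median was -0.0016. Single libraries moved both medians. The glycolysis median was -0.009 without WT 1, -0.0245 without WT 3 and 0.0358 without WT 2. The mitochondrial median was -0.0194 without WT 1, -0.0291 without CKO 1, -0.0372 without WT 3 and -0.0705 without WT 2, below 0 each time. The difference between the groups was not tested.

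By library, the 2 groups did not move together. WT 2 held the highest value of 14 of the 23 glycolysis members and of 0 of the 14 mitochondrial ones. WT 3 held the lowest value of 12 glycolysis members and the highest of 6 mitochondrial ones. CKO 1 held the lowest value of 7 mitochondrial members and of 2 glycolysis ones. The shares of all genes tested with their highest or lowest value in these libraries were not computed, so these counts have no background beside them. The median log2 deviation of the glycolysis group from the 6-library mean was 0.0636 in WT 2 and -0.0518 in WT 3, a gap within 1 genotype. Over all genes tested the median deviation was 0.00102 in WT 2 and 0.00154 in WT 3. Between libraries the median CV of the members was 4.18%, against 8.14% for all genes tested, and 23 members stayed under 5%. The comparison was not matched for level. A mean of at least 100 FPKM was reached by 18 members, against 663 of all 24346 symbols. The members with a CV over 10% (Hk2, Slc16a3 and Slc16a8) had means of 9.34, 16.7 and 3.13 FPKM.

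**Figure D5:**
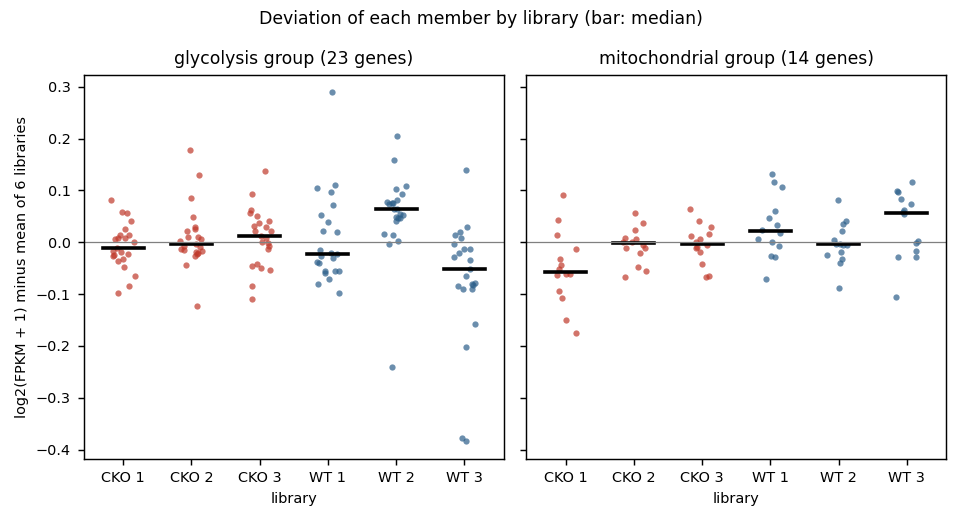
Deviation of each member's log2(FPKM + 1) from its mean over the 6 libraries, by library, with the median as a black bar; 23 glycolysis members on the left, 14 mitochondrial members on the right. WT 2 is high and WT 3 low on the left, with Hk2 and Slc16a3 at the bottom of WT 3, while WT 3 is high and CKO 1 low on the right.

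Markers of retinal cell types were read beside these groups, and 1 of them passed the adjusted test. It was Dkk3 of the Müller glia list, at 447 against 234 FPKM (log2 fold change 0.93, limma adjusted p = 0.00274), while the other 7 markers of that list lay between -0.21 (Vim) and 0.07 (Glul), none past the test. Of 8 rod markers 7 were below 0 (median log2 fold change -0.08), as were 7 of 8 cone markers (-0.18) and 6 of 7 ganglion cell markers (-0.18), while 6 of 6 amacrine markers were above 0 (0.21). Of the other lists, 6 of 8 Müller glia markers were above 0, and 5 of 6 horizontal, 4 of 6 bipolar, 6 of 7 endothelial and 4 of 6 microglia markers were below. Summed cone markers were 532 to 586 FPKM in CKO and 596 to 649 FPKM in WT, without overlap. The sums did not overlap either for horizontal cells (45.5 to 46.1 against 51.8 to 60.3 FPKM), ganglion cells (643 to 666 against 703 to 764 FPKM) and bipolar cells (453 to 463 against 474 to 486 FPKM), lower in CKO. They were higher in CKO, again without overlap, for amacrine cells (350 to 356 against 302 to 323 FPKM) and for the Müller glia list with Dkk3 (1832 to 2080 against 1659 to 1768 FPKM). The Müller glia sum includes the rise of Dkk3 from 234 to 447 FPKM. Among single genes tested, 13.9% had groups without overlap, and the sums themselves were not tested. Summed rod markers ran from 13059 to 14266 FPKM in CKO and from 13670 to 14899 FPKM in WT. They were lowest in CKO 1, the library with the lowest mitochondrial sum. The next lowest rod sum was in WT 1, where the mitochondrial sum (1139 FPKM) was exceeded only by that of WT 3 (1164 FPKM). No marker of these lists was at 0 in any library, unlike Mlana of the pigment epithelium list. Of that list 4 of 8 markers passed the filter, 3 above 0 and 1 below (median log2 fold change 0.25), none past the test. The red blood cell list had 1 marker past the filter, which lay below 0. The part of cell type composition in the members' values was not tested.

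Other genes of the same pathways were read from lists of related enzymes, carriers and regulators, and again none passed limma's adjusted threshold. Among other glucose carriers, isozymes and regulators 17 of 32 genes were tested, with 6 above 0 and 11 below. An unadjusted p under 0.05 was reached by 1 of the 17, where 7.88% of all genes tested reached it. That gene, Pgam5, encodes a mitochondrial phosphatase rather than a glycolytic mutase, and was at 29.1 ± 1.46 (CKO) against 33.5 ± 2.28 FPKM (WT, limma adjusted p = 0.54). The next in order of p were Slc2a6 (4.48 against 5.07 FPKM), Pfkfb3, which makes the activator of phosphofructokinase (8.37 against 9.39 FPKM), and Bpgm (38.9 against 41.5 FPKM).

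Among other monocarboxylate carriers, their partners and pyruvate entry, 20 of 23 genes were tested, with 9 above 0 and 11 below. An unadjusted p under 0.05 was reached by 2 of the 20, where 7.88% of all genes tested reached it. Nxnl2, a thioredoxin-like gene of the rod-derived cone viability factor family, was at 93.1, 90.4 and 87.7 FPKM in CKO, and at 101, 99.9 and 107 FPKM in WT (log2 fold change -0.19, SE 0.05, limma adjusted p = 0.395). Emb, which encodes embigin, the other ancillary protein of MCT carriers, was at 11.2, 10.8 and 10.8 FPKM in CKO, and at 12.3, 12.5 and 12.8 FPKM in WT (-0.19, SE 0.06, limma adjusted p = 0.518). In both genes every CKO library lay below every WT library, as in 6.95% of all genes tested. The same held for Pdp1 and Dld. Of the 20 genes, 6 had groups without overlap, 4 lower and 2 higher in CKO, against 13.9% of all genes tested. The difference between these shares was not tested. The phosphatase Pdp1, which activates pyruvate dehydrogenase, was at 9.06 against 10.2 FPKM, and Dld, the E3 subunit shared by pyruvate and oxoglutarate dehydrogenase, at 53.2 against 56.0 FPKM.

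Among other TCA cycle, redox shuttle and linked enzymes, 27 of 28 genes were tested, with 11 above 0 and 16 below. Where 7.88% of all genes tested had an unadjusted p under 0.05, 1 of the 27 did. It was Sdhc, a membrane subunit of succinate dehydrogenase, at 75.3, 83.5 and 88.2 FPKM in CKO and 72.4, 75.4 and 71.8 FPKM in WT (log2 fold change 0.16, SE 0.06, limma adjusted p = 0.592). Pck2 (6.48 against 5.56 FPKM), Glud1 (34.2 against 36.2 FPKM) and Me1 (36.6 against 38.9 FPKM) followed.

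Of the hypoxia pathway and its targets outside glycolysis, 14 of 16 genes were tested, with 5 above 0 and 9 below. Where 7.88% of all genes tested had an unadjusted p under 0.05, 1 of the 14 did. It was Ndrg1, at 196 ± 9.01 against 216 ± 6.43 FPKM (SD over 3 libraries; log2 fold change -0.14, limma adjusted p = 0.551). Hif1a, the oxygen-regulated subunit of the factor, was at 165 against 176 FPKM, the ubiquitin ligase gene Vhl at 17.2 against 19.1 FPKM and Ddit4 at 60.0 against 66.8 FPKM. In the pentose phosphate pathway, which branches from glycolysis after hexokinase, 4 of 8 genes were above 0. An unadjusted p under 0.05 was reached by 1 of the 8, against 7.88% of all genes tested. It was transketolase, Tkt, at 117, 123 and 127 FPKM in CKO, and at 105, 114 and 108 FPKM in WT (0.17, SE 0.05, limma adjusted p = 0.499). Its values were higher in CKO without overlap, as in 6.96% of all genes tested. Pgls (31.3 against 33.4 FPKM), H6pd (2.51 against 2.22 FPKM) and Rpe (11.1 against 10.2 FPKM) followed.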

How the data were processed

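Retinal total RNA was extracted with TRIzol and made into libraries with a TruSeq stranded mRNA kit, per the labels' protocols. Build mm10 and the tools Cufflinks 2.2.1, TopHat2 2.0.13, SAMtools 1.11 and Bowtie2 2.3.5.1 come from the submitters' processing notes; no source used here gives the annotation, parameters or use of strand. Deposited values are FPKM, 1 per symbol, judged from Cufflinks and from sums of 402832 to 436299 per library; absolute depth is unknown, so precision comes from the spread between libraries. In WT 3, 27 symbols had become dates and were restored by row.

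CKO and WT were tested in limma 3.58.1 (R 4.3.3; eBayes with a variance trend, two-sided, no covariate) on log2(FPKM + 1), over 13215 genes whose mean reached 1 FPKM, with Benjamini-Hochberg adjustment at 0.05. Such fold changes understate changes of low genes. The fit was tested on simulated data. Named are all members, Cyfip2 and, from each pathway list, the 4 genes of smallest p; shuttle genes and gene copies were added after their values were seen. Members and lists were chosen with earlier results of these data known. Ratios used scipy 1.17.1. Alternatives were 2 other scalings, a pseudocount of 0.1, no filter or a minimum of 5 FPKM, no trend, the replicate number as a block and each library left out. Positions came from GENCODE M21, promoters from RefSeq.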

Additional observations from a re-analysis of the deposited data

How the results depend on the processing

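No member was called in any of the 13 alternative fits; the lowest adjusted p of a member was 0.555, with the replicate block. The block called 2 genes over all genes, against 3. Same-numbered libraries had deviations correlated at r of 0.072, 0.006 and 0.101, and differently numbered ones at -0.119 to 0.036. The values 0.072 and 0.101 were the highest of all. All were small in size, so the numbers were not taken as pairs in the main fit. Over all genes, 1 was called without the variance trend, and 1 to 4 when a library was left out (1 without WT 2, 2 without CKO 3 or WT 1). The mitochondrial median stayed below 0, at -0.0705 to -0.0194 over left-out libraries, -0.0194 being without WT 1. Of the 9 ratios, 2 to 4 did not overlap over left-out libraries, 4 being without WT 3. A lack of overlap is easier to reach with a library left out, so these counts are not comparable with that of all 6 libraries. The cause of these shifts was not tested. Signs of 21 members turned in at least 1 alternative. Among them was Slc16a3, whose log2 fold change of 0.131 was the largest in size of all members. Quantile normalization turned Eno2 (0.0043) and Pkm (0.0175), and adding Eno1b, an alternative chosen after seeing the data, turned Eno1 (0.0214). Over left-out libraries the log2 fold changes that changed sign ranged as follows: Slc2a3 from -0.0584 to 0.0909, Hk2 from -0.1336 to 0.1602, Gpi1 from -0.0096 to 0.0412, Pfkp from -0.0090 to 0.0704, Aldoa from -0.0455 to 0.0463, Aldoc from -0.0153 to 0.0702, Tpi1 from -0.0332 to 0.0358, Gapdh from -0.0344 to 0.0223, Eno2 from -0.0608 to 0.0346, Ldha from -0.0342 to 0.0248, Ldhb from -0.0788 to 0.0114, Slc16a3 from -0.0246 to 0.2167, Slc16a8 from -0.1182 to 0.1467, Bsg from -0.0194 to 0.0320, Pdha1 from -0.0242 to 0.0398, Pdk1 from -0.0326 to 0.0439, Cs from -0.0140 to 0.0351, Ogdh from -0.0055 to 0.0235, Suclg1 from -0.0729 to 0.0022. The 16 other members kept their sign. With FPKM alone the sequencing depth is unknown, so the spread between 6 libraries limits what could be seen.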
